A study of Mus musculus with 36 samples.

Results

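Potassium channel genes were taken as every gene in the deposited expression tables whose symbol starts with Kcn followed by a lower-case letter. The rule found 96 gene lines (94 symbols, with Kcnb2 and Kcnh8 listed under 2 identifiers each) among 22560 lines with values in the table of the microglia-tagged mice and 22380 in the table of the mice tagged in D1 neurons. By family they were 42 voltage-gated pore subunits, 13 accessory subunits of voltage-gated channels, 15 inward rectifiers, 14 two-pore channels, 8 calcium-activated channels and their Slo relatives, and 4 accessory subunits of the calcium-activated channels. The rule used names alone and no measured value.

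Striatal RNA was collected by translating ribosome affinity purification (TRAP), in which an eGFP tag on the ribosomal protein L10a lets an antibody pull down the ribosomes of a tagged cell type, and the unbound RNA left after the pull-down was sequenced too. The microglia-tagged mice carried Cx3cr1CreErt2/+(Litt) with Eef1a1LSL.eGFPL10a/+, were given tamoxifen at 4-6 weeks of age, and all carried a Camk2a-tTA driver, active in forebrain excitatory and spiny neurons, with either TetO-Chrm3 or TetO-Chrm4, as the labels write the designer receptors. They received saline or clozapine-N-oxide (CNO), the ligand of such receptors, 2 h earlier, with 3 libraries per treatment and fraction in the Chrm3 line and 2 in the Chrm4 line, and no group with CNO but without a receptor was analysed. The second set carried Drd1-eGFPL10a and no receptor or CNO, with 4 pull-down and 4 unbound libraries labelled control and 3 and 4 labelled Il34 knockout; their source label reads Il34-/- for controls as well, and Drd1-Cre is named for the knockouts alone. Nothing in the labels says whether libraries of a group came from separate animals, so p-values measure only the spread between these libraries. In bulk RNA, fewer cells of a type and less RNA per cell cannot be told apart.

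Potassium channels let potassium leave or enter the cell and so set the resting potential and end the action potential. Voltage-gated channels (Kv) open on depolarisation, inward rectifiers (Kir) hold the membrane near rest, two-pore channels (K2P) carry a steady leak, and calcium-activated channels open when calcium rises. In striatal spiny neurons Kir2, Kv4 and KCNQ channels are known to shape the silent resting state and the delay to firing, astrocytes buffer potassium through Kir4.1, and resting microglia are known for a leak through the K2P channel THIK-1, encoded by Kcnk13.

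The promoters of Kcnk13 and Kcnj2, which were higher in the microglial pull-down, and of Kcnf1, the member that rose with CNO, are shown because the results turn on these genes (RefSeq on GRCm38.p6, 250 bases before to 50 after the start, written 5′ to 3′ on the gene's strand; entries were found for 3 of the 5 genes looked up). Capitals mark the core GAGGAA of the macrophage factor PU.1, or its reverse complement TTCCTC. The Kcnk13 window lies at chr12:99964249-99964548 on the plus strand, that of Kcnj2 at chr11:111065914-111066213 on the plus strand and that of Kcnf1 at chr12:17176839-17177138 on the minus strand.
Kcnk13: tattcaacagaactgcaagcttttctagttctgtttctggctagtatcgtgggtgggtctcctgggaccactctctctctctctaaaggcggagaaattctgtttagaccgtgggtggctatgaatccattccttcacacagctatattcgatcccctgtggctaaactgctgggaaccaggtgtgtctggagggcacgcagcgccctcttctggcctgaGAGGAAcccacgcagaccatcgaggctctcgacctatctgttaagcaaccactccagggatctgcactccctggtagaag
Kcnj2: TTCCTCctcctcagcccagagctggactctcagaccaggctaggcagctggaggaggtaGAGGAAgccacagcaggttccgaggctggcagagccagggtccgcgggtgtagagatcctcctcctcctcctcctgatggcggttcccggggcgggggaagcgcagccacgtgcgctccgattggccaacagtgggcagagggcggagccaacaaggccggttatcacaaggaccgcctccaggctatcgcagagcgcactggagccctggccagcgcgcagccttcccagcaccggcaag
Kcnf1: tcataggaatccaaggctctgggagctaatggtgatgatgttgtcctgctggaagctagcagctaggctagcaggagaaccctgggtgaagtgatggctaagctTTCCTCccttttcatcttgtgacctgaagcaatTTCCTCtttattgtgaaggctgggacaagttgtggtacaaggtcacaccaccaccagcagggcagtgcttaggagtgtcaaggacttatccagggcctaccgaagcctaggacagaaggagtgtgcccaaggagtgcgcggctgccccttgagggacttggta
The core occurred once in the Kcnk13 window and at 2 places in each of the others. Over both strands, 28.3% of 32851 promoters of the same length hold it, so its presence is a description and not a site. The activity-linked motifs TGACGTCA (held by 1.79% of promoters) and TGANTCA (7.81%) are not in these 3 windows, which says only that those letters are absent there.

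Expression is given in RPKM (reads per kilobase, normalized to sequencing depth), as the authors deposited it. Each library held 12.1 to 109 M reads in genes for the microglia-tagged mice and 11.3 to 41.1 M for the D1-tagged mice. The 2 tables were normalized separately, so levels are compared within each table only. The microglial tag behaved as labelled: all 16 microglial markers rose in the pull-down, and their summed level was 5388 to 7769 RPKM in the saline pull-downs against 43.3 to 59.5 RPKM in the unbound RNA. Pan-neuronal markers remained in the pull-down at a summed 989 to 1762 RPKM against 2967 to 4245 RPKM unbound. Perivascular macrophage markers, from cells that also use Cx3cr1, summed to 21.1 to 59.3 RPKM against 1.99 to 2.83 RPKM.

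The first question was which potassium channel genes were on microglial ribosomes. In the 5 saline pull-downs of both lines against their 5 unbound libraries, 4 of the 61 members tested rose and 52 fell (limma, adjusted p under 0.05 over all genes). Over all genes tested, 32.1% rose and 33.4% fell. The 4 that rose were the K2P channels Kcnk6 and Kcnk13, the A-type voltage-gated channel Kcnd1 and the inward rectifier Kcnj2. The median log2 change of the 61 members was -0.99, against -0.02 over all genes. Of the falls, 30 were among 32 voltage-gated pore subunits, 6 among 8 voltage-gated accessory subunits, 6 among 9 inward rectifiers, 4 among 6 two-pore channels, 5 among 5 calcium-activated channels and 1 was the single calcium-activated accessory subunit tested. The lowered members moved beside the neuronal and astrocytic markers: 8 of 9 pan-neuronal markers fell (median log2 change -1.62), 11 of 11 spiny neuron markers fell (-1.42) and 9 of 10 astrocyte markers fell (-1.25), and the part of these cells in the channel results was not tested.

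**Figure D1:**
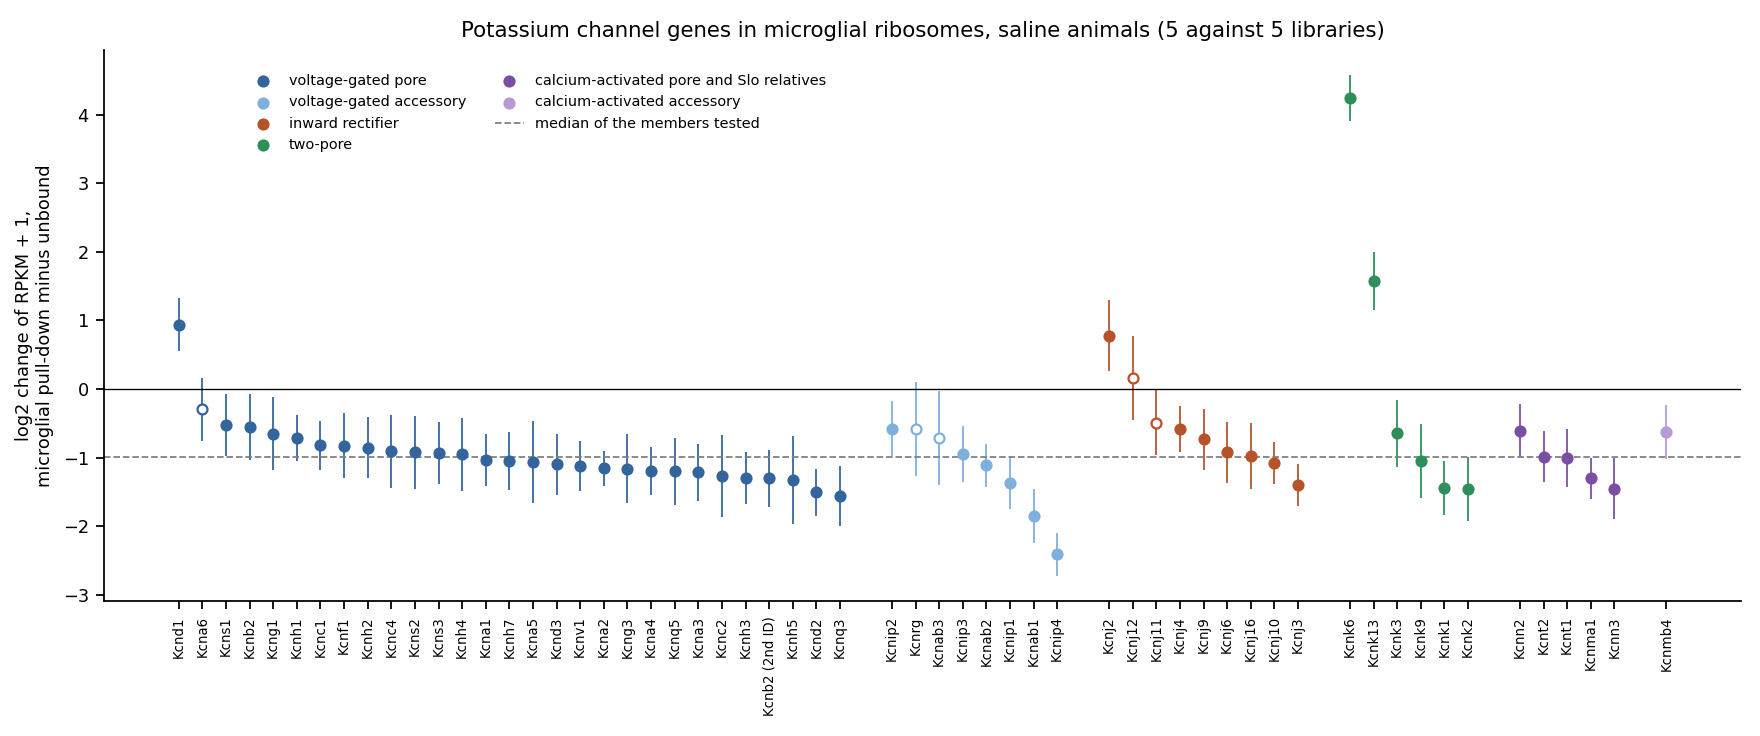
Log2 change of RPKM + 1 between microglial pull-down and unbound RNA of the saline animals (5 against 5 libraries, limma estimate, bars are 95% confidence intervals) for 58 of the 61 members tested, ordered within family; filled points passed an adjusted p of 0.05. The intervals of Kcnk6, Kcnk13, Kcnd1 and Kcnj2 lie above 0, and most other members lie near the dashed median of all 61, -0.99.

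Kcnk6, at chromosome 7:29221926-29232515 on the minus strand of GRCm38, encodes TWIK-2, a two-pore channel known in macrophages for a potassium efflux that primes the NLRP3 inflammasome. Its level in the saline pull-downs was 29.3, 28.3 and 22.1 RPKM in the Chrm3 line and 20.1 and 35.7 RPKM in the Chrm4 line, against 0.373, 0.511 and 0.416 RPKM and 0.506 and 0.491 RPKM in the unbound RNA. The pull-downs lay far above the unbound libraries without overlap, and both lines gave the same order. The means were 27.1 ± 6.23 and 0.460 ± 0.0615 RPKM (SD, n = 5 each), and on the log2(RPKM + 1) scale, which understates the change of a gene this low in the unbound RNA, the difference was 4.24 ± 0.16 (SE; adjusted p = 1.41e-14, limma). The unbound values rested on 41 to 123 reads per library and the pull-down values on 1969 to 12041 reads.

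Kcnk13 encodes THIK-1, the channel known to carry the tonic potassium conductance of microglia, to keep their processes surveying and to feed interleukin-1β release; the gene spans chromosome 12:99964499-100062682. It was at 6.20, 5.75 and 9.94 RPKM in the Chrm3 and 5.91 and 5.71 RPKM in the Chrm4 pull-downs, against 1.50, 1.18 and 2.23 RPKM and 1.34 and 1.57 RPKM unbound. The highest pull-down library was the third of the Chrm3 line, whose group also held the highest unbound library, and the fractions did not overlap. The log2 difference was 1.57 ± 0.20 (SE; means 6.70 ± 1.82 and 1.56 ± 0.404 RPKM, SD, n = 5 each; adjusted p = 1.28e-06, limma). Thus Kcnk13 was a lower message than Kcnk6 per kilobase in every saline pull-down. Its close relative Kcnk12, THIK-2, was at most 0.435 RPKM in any of these 20 libraries.

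Kcnd1 encodes Kv4.1, a pore of the fast-inactivating A-type current, and lies at chromosome X:7822289-7838280. Its pull-down levels were 7.45, 8.83, 6.63, 8.33 and 5.95 RPKM and its unbound levels 3.15, 3.76, 3.37, 3.46 and 3.17 RPKM, Chrm3 libraries first. Every pull-down library was higher than every unbound one. On the log2 scale Kcnd1 was higher by 0.94 ± 0.18 (SE; adjusted p = 0.000189, limma). Its relatives went the other way: Kcnd2, Kv4.2 of the neuronal A-type current, averaged 8.41 ± 1.95 RPKM in the pull-down and 25.6 ± 4.21 RPKM unbound (log2 difference -1.51 ± 0.16), and Kcnd3, Kv4.3, averaged 3.45 ± 1.42 and 8.16 ± 1.38 RPKM (-1.10 ± 0.21).

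Kcnj2 encodes Kir2.1, a strong inward rectifier of neurons, vessels and macrophage-lineage cells, at chromosome 11:111066164-111076821. It was at 27.0, 23.0, 20.7, 16.5 and 23.5 RPKM in the pull-downs and at 14.8, 10.1, 12.4, 12.2 and 12.6 RPKM in the unbound libraries, Chrm3 first. The lowest pull-down library lay just above the highest unbound one. The estimated log2 change of Kcnj2 was 0.78 ± 0.25 (SE; adjusted p = 0.00956, limma). Unlike Kcnk6, Kcnj2 was a sizeable message in both fractions.

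**Figure D2:**
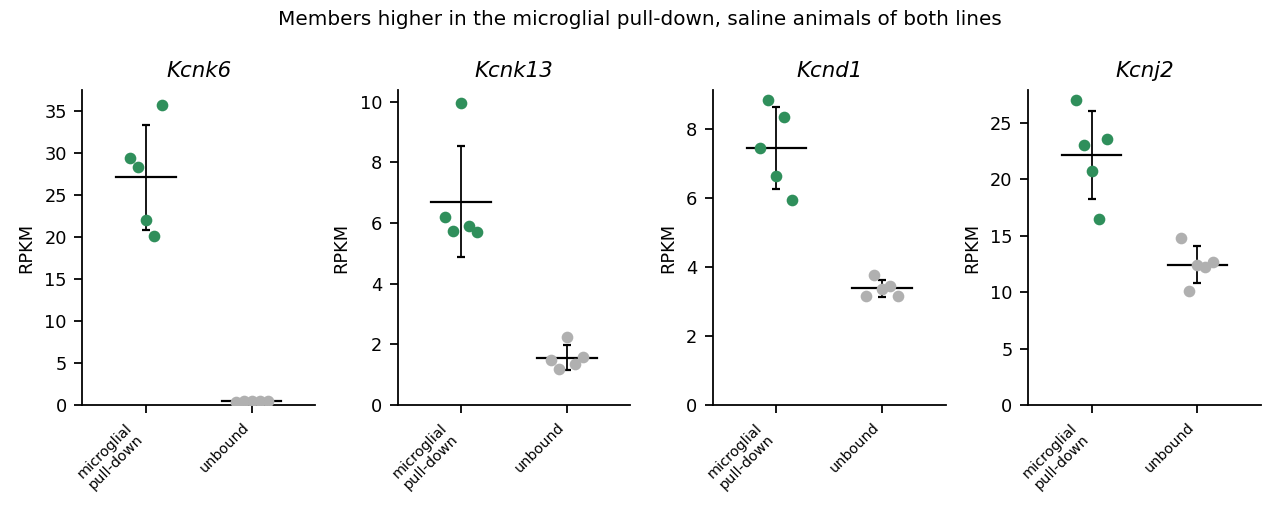
RPKM of Kcnk6, Kcnk13, Kcnd1 and Kcnj2 in each saline library of the microglial pull-down and the unbound RNA; lines are the mean and SD of 5 libraries. The fractions do not overlap for any of the 4 genes, and Kcnk6 is near 0 in the unbound RNA (0.460 RPKM on average).

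The steepest falls were of Kcnip4 and Kcnab1, accessory subunits of A-type and Shaker channels. Kcnip4, a calcium-binding partner of Kv4, stood at 4.19, 4.04, 7.23, 5.26 and 4.35 RPKM in the pull-downs and at 32.0, 29.1, 28.5, 30.9 and 31.9 RPKM unbound. No pull-down library came near the unbound range. The log2 change of Kcnip4 was -2.41 ± 0.15 (SE; adjusted p = 2.88e-11, limma). Kcnab1, the Kvβ1 subunit that confers fast inactivation on Kv1 channels, followed at 7.29 ± 1.59 against 29.3 ± 7.13 RPKM (-1.86 ± 0.19). Kcnip1 averaged 1.66 ± 0.685 against 5.74 ± 0.874 RPKM (-1.37 ± 0.19). The median log2 change over the 8 voltage-gated accessory subunits tested was -1.03, and over the 32 voltage-gated pores -1.04.

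Kcnip2, the KChIP2 subunit typical of striatal spiny neurons, was the most abundant member in the saline pull-downs. Its fall was smaller than the median log2 change of the members tested (-0.99). Its levels were 32.8, 21.2, 44.8, 38.6 and 26.0 RPKM in the pull-downs and 44.5, 43.6, 56.9, 58.2 and 38.3 RPKM unbound. The fractions overlapped, with the third Chrm3 and first Chrm4 places high in both lists, though places in the lists do not pair libraries. The call (-0.58 ± 0.19 on the log2 scale, SE; adjusted p = 0.0127, limma) was missed without Chrm3 pull-down library 2, Chrm4 pull-down library 2 or Chrm4 unbound library 1, at -0.41, -0.47 and -0.46 (adjusted p = 0.0555 to 0.0614, limma).

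Pores of the M-current, which brakes firing below threshold, fell. Kcnq3 averaged 9.10 ± 2.35 RPKM in the pull-down and 28.3 ± 3.31 RPKM unbound (log2 difference -1.57 ± 0.21), and Kcnq5 fell by 1.20 on the log2 scale. The Shaker pores of axons fell too, with Kcna1 at 25.9 ± 9.41 against 51.7 ± 3.49 RPKM (-1.03 ± 0.18) and Kcna2 at 19.8 ± 5.43 against 44.3 ± 4.00 RPKM (-1.16 ± 0.12). Kcna3, whose Kv1.3 channel is known from activated microglia and T cells, was low in both fractions, at 0.361 ± 0.213 RPKM in the pull-down and 2.22 ± 0.934 RPKM unbound (-1.22 ± 0.20). Kcnn4, the KCa3.1 channel also known from activated microglia, did not reach the level needed for testing: its highest value in the 20 libraries was 0.689 RPKM, on 25 reads.

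Other steep falls were of leak and calcium-activated channels. The neuronal and glial leak channels Kcnk2 (TREK-1; 8.43 ± 3.99 against 23.7 ± 4.86 RPKM) and Kcnk1 (TWIK-1; 14.9 ± 5.08 against 40.7 ± 2.18 RPKM) fell by 1.46 and 1.44 on the log2 scale. Kcnn3 and Kcnma1, the pores of SK3 and BK channels that follow calcium entry, averaged 1.70 ± 0.665 against 6.33 ± 1.36 RPKM (-1.45 ± 0.21) and 11.03 ± 2.19 against 28.4 ± 3.39 RPKM (-1.30 ± 0.14). Among inward rectifiers, the G-protein-gated Kcnj3 averaged 4.51 ± 0.801 against 13.4 ± 1.17 RPKM (-1.40 ± 0.15) and the astrocytic Kcnj10, encoding Kir4.1, 8.45 ± 2.07 against 18.7 ± 3.13 RPKM (-1.08 ± 0.15). The members that missed the threshold were Kcnj12, Kcna6, Kcnj11, Kcnrg and Kcnab3, with adjusted p between 0.0633 (Kcnab3) and 0.646 (Kcnj12).

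The messages of proteins that partner the channels were largely lower in the pull-down too. Of 19 channel partners tested (scaffolds, calmodulins and adhesion subunits), 18 fell and none rose, with a median log2 change of -1.11; the scaffold Dlg2 averaged 18.9 ± 4.90 against 64.2 ± 5.07 RPKM (-1.74 ± 0.14). Of 9 potassium transport genes, 7 fell and 1 rose. Of 5 other potassium-conducting channels, 3 fell and 1 rose, the riser being Tmem38b, the TRIC-B channel of internal stores, at 5.22 ± 1.63 against 3.04 ± 1.24 RPKM (0.63 ± 0.23, adjusted p = 0.0212, limma).

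The second question was which members D1 spiny neurons hold on their ribosomes. On the deposited scale 41 of 58 members tested rose in the D1 pull-down of control animals and 3 fell, but 84.8% of all genes rose on that scale and 6.84% fell. Relative to the median library, the divisor per read in genes was about 0.60 in pull-downs and 1.00 to 1.16 in unbound libraries. The median log2 change over all genes was 0.81, above the members' own median of 0.72. The comparison was therefore repeated under 4 other scalings, which brought the all-gene median to between 0.10 and 0.15. Under all 4 of them 12 members rose (20.7% of the 58, against 29.6% of all genes) and 10 fell (17.2% against 18.3%), and 25 were called by none (43.1% against 31.3%). The share that fell was thus close to that of all genes and the share that rose was below it.

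**Figure D3:**
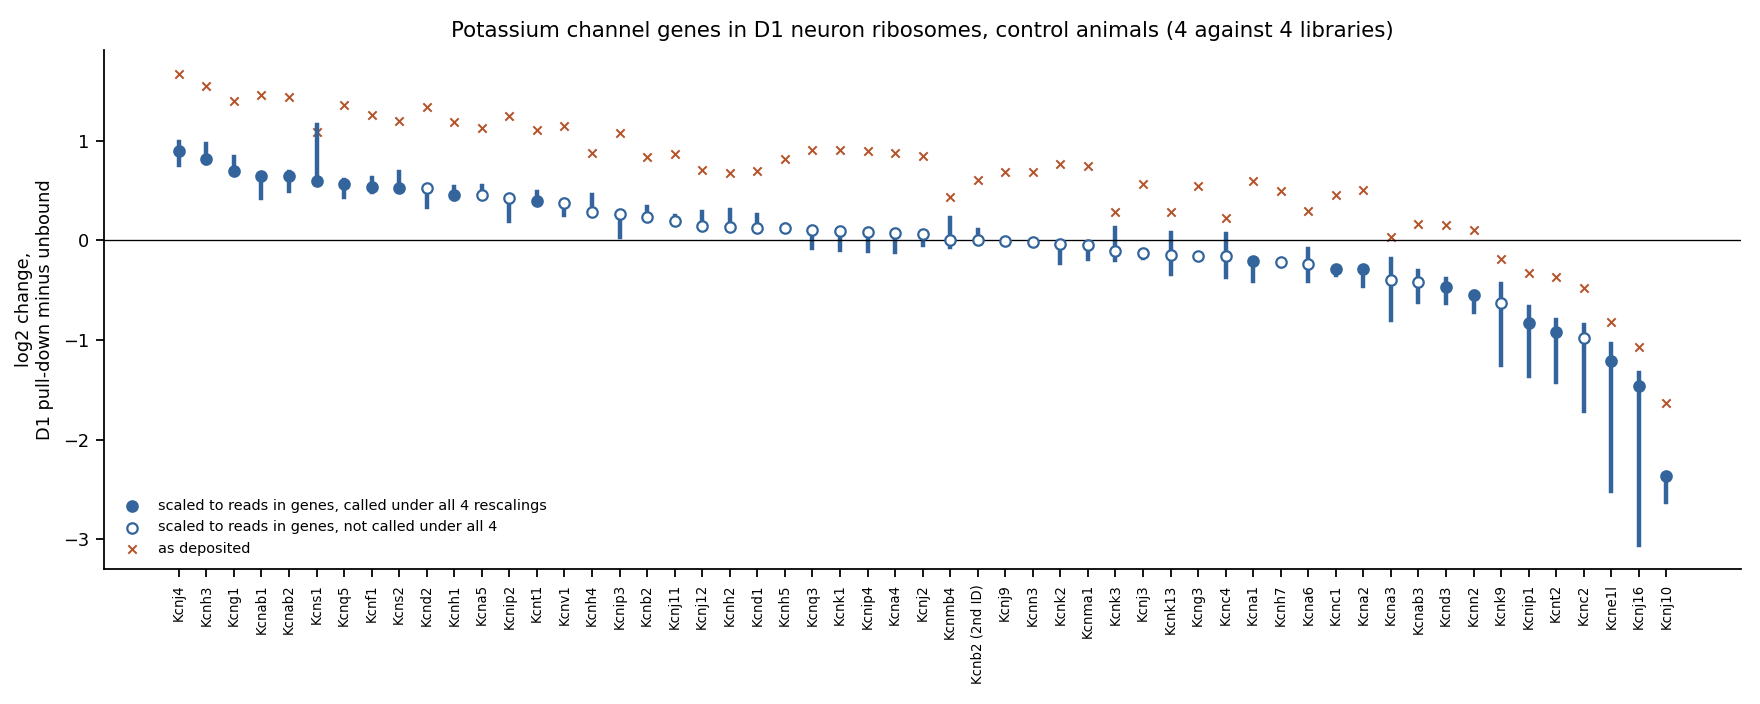
Log2 change between D1 pull-down and unbound RNA of the control animals (4 against 4 libraries) for 55 of the 58 members tested: crosses on the deposited scale, circles after scaling to reads in genes, bars the range over 4 rescalings. Members at the left, from Kcnj4 on, stay above 0 and Kcnj10 at the right lies below -2 on every rescaling.

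Kcnj4 had the largest rise as deposited, under median-ratio scaling and when scaled to reads in genes. Under quantile normalization the silent subunit Kcns1 (0.78) and the pore Kcnh3 (0.77) were above it, and under voom Kcns1 (1.16) was. Kcnj4 encodes Kir2.3, an inward rectifier of spiny neurons, at chromosome 15:79483714-79505241. Control pull-downs held 21.4, 26.9, 27.6 and 41.1 RPKM and unbound libraries 7.52, 7.36, 7.91 and 10.5 RPKM. The fourth library was highest in both fractions, and the fractions did not overlap. The log2 difference was 1.67 as deposited and 0.76 to 0.98 under the 4 rescalings. Its relative Kcnj2, at 18.9 ± 2.69 against 10.1 ± 1.60 RPKM (SD, n = 4 each), was within -0.05 to 0.07 after rescaling and was not called there.

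Kcnab1 and Kcnab2, accessory subunits of Kv1 channels, were also higher under all 4, while Kcnab3 was called under none (-0.62 to -0.31). Kcnab1 was at 66.0, 62.0, 64.6 and 58.6 RPKM in the pull-downs and 19.96, 21.3, 25.8 and 22.2 RPKM unbound. All pull-down libraries were above all unbound ones by a wide margin, and the rescaled log2 differences were 0.43 to 0.66. Kcnab2 averaged 31.7 ± 3.87 against 11.1 ± 0.966 RPKM (0.50 to 0.68). Of the electrically silent subunits, which form no channel alone and tune other voltage-gated pores, Kcng1, Kcns1, Kcns2 and Kcnf1 were called under all 4 rescalings as well and Kcng3 (-0.17 to -0.14) under none; Kcng1 averaged 10.0 ± 1.89 against 3.15 ± 0.414 RPKM (0.67 to 0.83) and Kcnf1 11.02 ± 1.56 against 4.02 ± 0.372 RPKM (0.49 to 0.62).

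Other members higher under all 4 included the ether-à-go-go relatives Kcnh3 and Kcnh1, the M-current pore Kcnq5 and the sodium-activated Kcnt1. These families did not rise as a whole: the M-current pore Kcnq3 (-0.07 to 0.10) and the ether-à-go-go relative Kcnh7 (-0.26 to -0.22) were called under none. Kcnh3 averaged 13.3 ± 3.62 against 3.80 ± 0.388 RPKM (0.77 to 0.96), Kcnq5 28.2 ± 3.42 against 10.4 ± 0.861 RPKM (0.43 to 0.61) and Kcnt1 9.21 ± 2.00 against 3.68 ± 0.308 RPKM (0.37 to 0.48). A further 5 members, Kcnd2, Kcnip2, Kcnv1 and Kcnip3 among them, were called under 3 of the 4 rescalings and missed under quantile normalization.

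The most abundant members of the D1 pull-down were Kcnip2, Kcnip3, Kcnab1 and Kcnd2, at 80.8 ± 13.8, 75.0 ± 8.36, 62.8 ± 3.25 and 60.3 ± 8.99 RPKM. Kv4.2, its KChIP partners Kcnip2 and Kcnip3 and the Kv1 subunit Kcnab1 thus stood at the top. The means of neighbours in this order differ by less than their SDs except between Kcnip3 and Kcnab1. Kcnip3 and Kcnip2 also ranked 1 and 2 in the control unbound RNA, at 35.0 ± 4.37 and 33.4 ± 4.56 RPKM, so their rank is not particular to the pull-down. Kcnip2 was at 60.2, 85.3, 88.4 and 89.4 RPKM in the pull-downs and 28.5, 32.0, 39.5 and 33.4 RPKM unbound. The first pull-down library stood below the other 3 and still above every unbound library.

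**Figure D4:**
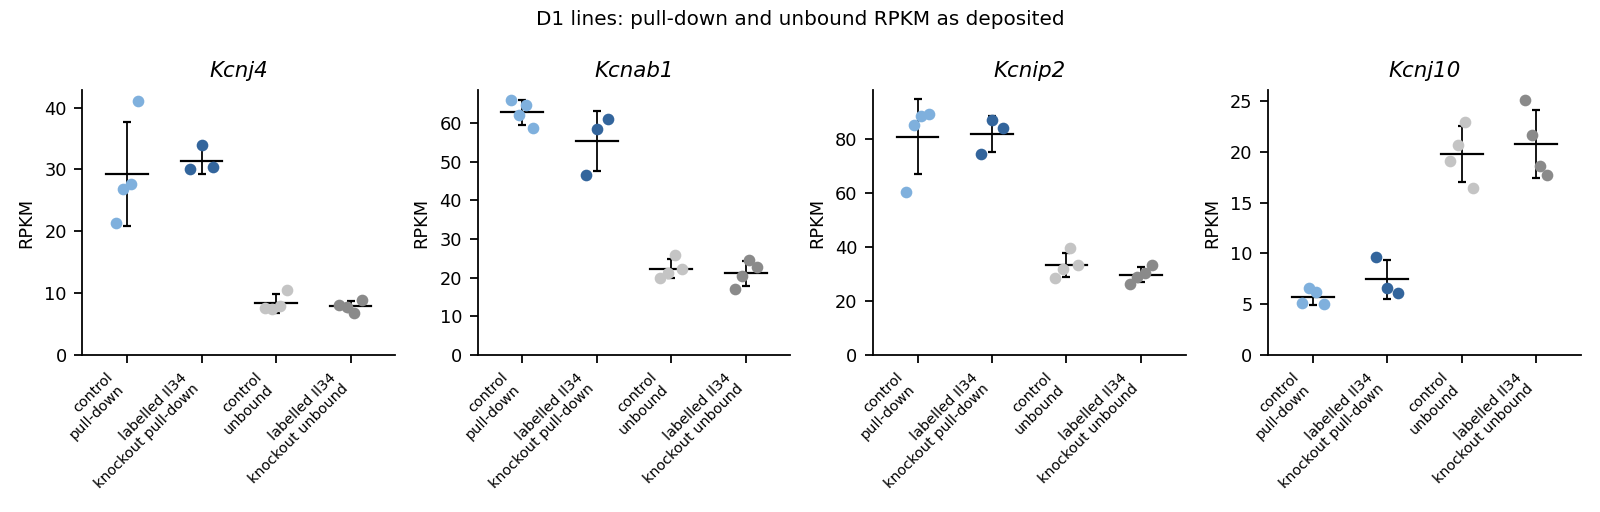
Deposited RPKM of Kcnj4, Kcnab1, Kcnip2 and Kcnj10 in each library of the 4 groups of D1-tagged mice; lines are the mean and SD. Kcnj4, Kcnab1 and Kcnip2 are higher in both pull-down groups, Kcnj10 is higher in both unbound groups, and within a fraction the ranges of labelled knockout and control overlap for each of the 4 genes.

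Kcnj10, the astrocytic Kir4.1 gene at chromosome 1:172341210-172374085, was the member lowered most as deposited and under 3 of the 4 rescalings, with Kcnj16 below it under voom. Kcnj10 was at 5.09, 6.62, 6.15 and 4.98 RPKM in the D1 pull-downs and 19.1, 20.7, 22.9 and 16.4 RPKM unbound. Every pull-down library was far below the unbound ones. The log2 difference was -1.63 as deposited and -2.62 to -2.37 rescaled. Kcnj16, encoding the Kir5.1 subunit that joins Kir4.1, averaged 0.533 ± 0.312 against 2.21 ± 0.673 RPKM (-3.06 to -1.33), and Kcne1l, an accessory subunit, 0.518 ± 0.158 against 1.68 ± 0.174 RPKM (-2.52 to -1.04). All 10 astrocyte markers were lower in the same libraries, with a median log2 change of -1.45 on the deposited scale.

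The other members lower under all 4 rescalings were Kcnt2, Kcnip1, Kcnn2, Kcnd3, Kcna2, Kcnc1 and Kcna1. For Kcna1, Kcna2 and Kcnc1 the deposited values point the other way: Kcna1 averaged 43.1 ± 2.93 RPKM in the pull-down and 28.3 ± 3.79 RPKM unbound, a log2 difference of 0.60 as deposited and of -0.41 to -0.21 rescaled. In all, 8 members called on the deposited scale had the opposite sign under all 4 rescalings. Kcna1, Kcna2 and Kcnc1 are known from fast-firing interneurons and axons as well as spiny neurons. In the same libraries 7 of 9 interneuron markers (median log2 change -0.98) and 5 of 6 D2 neuron markers (-1.31) fell on the deposited scale, and their part in the lowered channels was not tested. Of 19 channel partners, 16 rose and 1 fell on the deposited scale (median log2 change 0.77), close to the 0.81 of all genes. Of 9 potassium transport genes, 5 rose and 3 fell.

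Cortical neuron markers varied between the D1 libraries. Library 1 of each group held a summed 46.8 to 76.7 RPKM of them and the others 3.58 to 25.9 RPKM. Library 1 of each group also held the highest level within its group of Kcnj3 (10.3, 7.93, 7.48 and 8.33 RPKM in control pull-down, control unbound, labelled knockout pull-down and labelled knockout unbound, against 2.41 to 7.61 RPKM elsewhere) and of Kcnh7 (11.7, 8.84, 9.47 and 9.94 RPKM against 3.69 to 7.38 RPKM). Library numbers name only a place within a group, and the part of cortical tissue in these values was not tested.

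The third question was how the channels responded to CNO 2 h after injection. In the unbound RNA of Chrm3 mice, 1 of 62 members rose, Kcnf1, and none fell (limma; 7 members, 11.3%, had an unadjusted p under 0.05, as did 12.4% of all genes), against 0.575% of all genes that rose and 0.126% that fell. In the Chrm4 unbound RNA none of 62 was called (0% of all genes in either direction; 4 members, 6.45%, had an unadjusted p under 0.05, as did 5.03% of all genes). The response of 23 activity-regulated genes gives the scale: 20 rose in the Chrm3 unbound RNA with a median log2 change of 2.78, and none was called in the Chrm4 unbound RNA (median -0.29).

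Kcnf1 encodes the silent subunit Kv5.1, at chromosome 12:17172100-17176888. In the Chrm3 unbound RNA it was at 8.06, 11.5 and 9.12 RPKM with saline and 17.3, 25.1 and 19.8 RPKM with CNO. Every CNO library exceeded every saline library. The means were 9.57 ± 1.79 and 20.7 ± 3.99 RPKM (SD, n = 3 each) and the log2 difference was 1.04 ± 0.18 (SE; adjusted p = 0.0274, limma). In the Chrm4 unbound RNA the values were 8.59 and 12.7 RPKM with saline and 15.8 and 12.9 RPKM with CNO, a log2 difference of 0.42 ± 0.22 (unadjusted p = 0.0803, limma). The difference between the lines, 0.62 ± 0.28, did not pass (adjusted p = 0.694, limma; 95% confidence interval 0.01 to 1.23). Leaving out saline library 1 or 3, or CNO library 2 or 3, ended the call with log2 differences of 0.93, 1.01, 0.90 and 1.06, as did testing without the filter on low values (adjusted p = 0.251, limma).

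Kcnj2 varied between the CNO libraries. In the Chrm3 unbound RNA it was at 14.8, 10.1 and 12.4 RPKM with saline and 10.6, 32.3 and 22.1 RPKM with CNO. The first CNO library lay within the saline range and the other 2 above it. That library also had the weakest activity response, with Fos at 20.8 RPKM against 191.7 and 101.0 RPKM in the other CNO libraries and 0.967 to 5.01 RPKM with saline. It was the shallowest of the group as well, at 12.1 M reads in genes against 83.2 and 97.1 M. The part of activity or depth in the Kcnj2 values was not tested. With all libraries the log2 difference of Kcnj2 was 0.64 ± 0.29 and did not pass (adjusted p = 0.393, limma); without the first CNO library it was 1.06 and passed. In the Chrm4 unbound RNA, Kcnj2 was at 12.2 and 12.6 RPKM with saline and 10.3 and 10.9 RPKM with CNO.

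The remaining members with an unadjusted p under 0.05 in the Chrm3 unbound RNA, a share no larger than that of all genes, did not pass adjustment and are given as values (adjusted p from 0.257 to 0.397, limma). Kcnh7, of the Erg family, averaged 26.1 ± 2.61 RPKM with CNO and 17.6 ± 3.82 RPKM with saline, Kcnv1, a silent subunit, 20.5 ± 2.04 and 14.4 ± 0.558 RPKM, and Kcnma1 32.7 ± 1.45 and 27.1 ± 2.34 RPKM. On the lower side, Kcna4, Kv1.4 of the A-type current, averaged 13.4 ± 2.06 with CNO and 19.7 ± 5.15 RPKM with saline, and Kcnab1 19.7 ± 4.42 and 28.2 ± 7.74 RPKM. In the same libraries all 11 spiny neuron markers had a lower mean with CNO, none of them called (median log2 change -0.48), and cortical neuron markers summed to 173.0 to 208.8 RPKM with CNO and 94.8 to 199.5 RPKM with saline; the part of tissue makeup in these values was not tested. In the Chrm4 unbound RNA the members with an unadjusted p under 0.05 included Kcnk1 (50.8 ± 1.41 with CNO and 40.5 ± 4.08 RPKM with saline), Kcnc4 and Kcnj11. The CNO libraries of that group held 106.1 and 108.6 M reads in genes and the saline libraries 20.5 and 23.6 M, so depth and treatment cannot be told apart there.

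In the microglial pull-downs no member passed the test in either line: none of 55 in the Chrm3 line (0.0436% of all genes rose and 0% fell) and none of 55 in the Chrm4 line (0% in either direction). Unadjusted p under 0.05 was found for 4 members in the Chrm3 line (7.27%, against 5.49% of all genes) and for 0 in the Chrm4 line (against 3.78% of all genes, limma). Activity-regulated genes rose in the Chrm3 pull-downs for 5 of 23 (median log2 change 1.96), beside the neuronal RNA that the pull-downs held.

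Kcnk13 was lower with CNO in every pull-down library of both lines, without passing the test. In the Chrm4 unbound RNA it moved the other way, also without overlap (log2 difference 0.26, 2 libraries per group). In the Chrm3 pull-downs it was at 6.20, 5.75 and 9.94 RPKM with saline and 5.03, 3.96 and 2.65 RPKM with CNO. In the Chrm4 pull-downs it was at 5.91 and 5.71 RPKM with saline and 3.88 and 2.56 RPKM with CNO. No CNO library reached the saline range of its line. The log2 differences were -0.76 ± 0.29 (SE; adjusted p = 0.805, 95% confidence interval -1.39 to -0.13, limma) and -0.71 ± 0.36 (adjusted p = 0.999, interval -1.48 to 0.06, limma).

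Kcnk6 stayed within its spread: with CNO it was at 21.1, 28.8 and 27.4 RPKM in the Chrm3 line and 22.3 and 28.8 RPKM in the Chrm4 line, inside or near the saline values given above. Its log2 differences were -0.05 (95% confidence interval -0.54 to 0.45) and -0.08 (-0.69 to 0.53). Changes within those bounds remain possible. The bounds are not limits of detection, since larger changes could also miss the threshold, as that of Kcnk13 above did. Kcnj2 averaged 21.3 ± 8.83 RPKM with CNO in the Chrm3 pull-downs and 16.4 ± 3.69 RPKM in the Chrm4 pull-downs, against 23.6 ± 3.20 and 19.99 ± 4.99 RPKM with saline. Kcnf1 averaged 9.65 ± 5.12 against 5.66 ± 1.87 RPKM and 6.96 ± 0.274 against 4.59 ± 0.291 RPKM.

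The lowest unadjusted p in the Chrm3 pull-downs belonged to Kcnj5, a G-protein-gated inward rectifier. It was at 1.66, 2.42 and 1.85 RPKM with saline and 0.248, 0.00608 and 0.360 RPKM with CNO. The treatments did not overlap, and the difference did not pass adjustment (-1.31 ± 0.40, adjusted p = 0.674, limma). In the Chrm4 pull-downs Kcnj5 ranged as widely within saline alone, from 0.216 to 2.45 RPKM. The other 2 were Kcng3, at 1.23 ± 0.669 with CNO and 3.42 ± 1.03 RPKM with saline, and Kcna4, at 4.30 ± 0.819 and 7.32 ± 2.23 RPKM.

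In the Chrm4 line 3 of the 53 members tested in both fractions (5.66%, against 6.4% of all genes) had CNO and saline libraries that did not overlap in either fraction and moved in opposite directions.

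**Figure D5:**
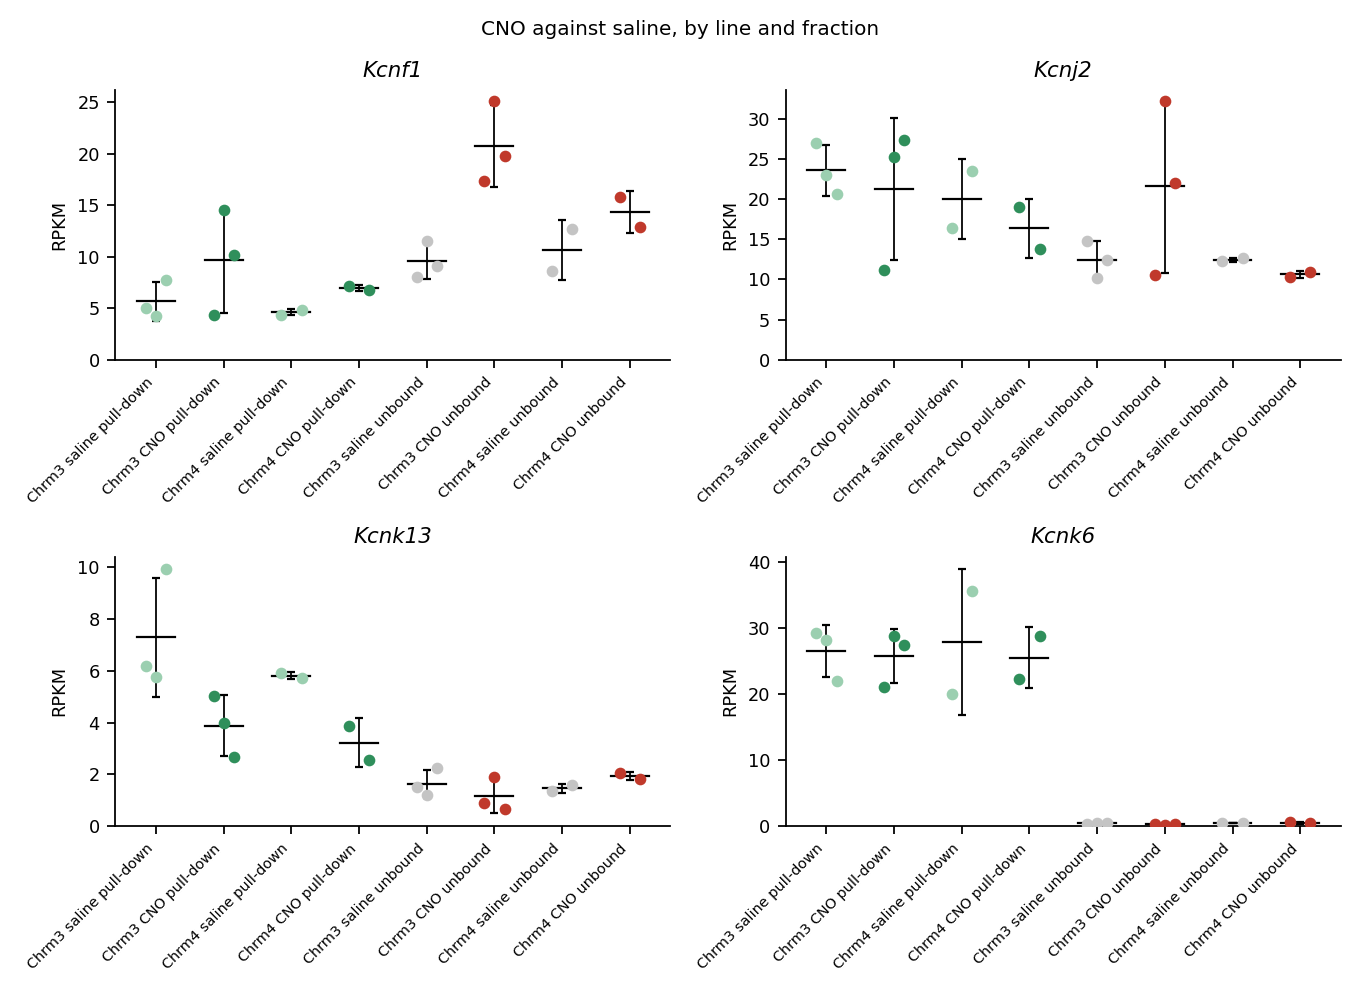
RPKM of Kcnf1, Kcnj2, Kcnk13 and Kcnk6 in each library of the microglia-tagged mice by line, treatment and fraction; lines are the mean and SD of 3 (Chrm3) or 2 (Chrm4) libraries. In the Chrm3 unbound RNA, Kcnf1 with CNO (17.3 to 25.1 RPKM) lies above saline (8.06 to 11.5 RPKM), and Kcnk13 with CNO lies below saline in the pull-downs of both lines.

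The difference between the 2 lines in their CNO response was tested as an interaction. No member passed in the pull-downs (55 tested; 0% of all genes in either direction, with 3 members, 5.45%, at an unadjusted p under 0.05 against 3.94% of all genes) or in the unbound RNA (62 tested; 0.036% of all genes higher and 0.018% lower, with 2 members, 3.23%, at an unadjusted p under 0.05 against 7.14% of all genes). In the pull-downs the 3 were the leak channel Kcnk9 (-1.87 ± 0.67), Kcnj5 (-1.51 ± 0.63) and Kcnj16 (1.20 ± 0.55), all low messages. In the unbound RNA they were Kcnc2, Kv3.2 of fast-firing interneurons (0.53 ± 0.21), and Kcnf1, given above.

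The last comparison set libraries labelled Il34 knockout against control in the D1-tagged mice, a test of whether the microglial growth factor made by neurons bears on the channels. Il34 itself did not separate the labels: it was at 6.56, 9.87, 9.19 and 10.5 RPKM in the control pull-downs and 11.1, 9.84 and 9.90 RPKM in those labelled knockout, and at 2.57, 2.66, 2.80 and 3.37 RPKM in control and 3.14, 2.29, 2.02 and 2.61 RPKM in labelled knockout unbound RNA. A value over the whole gene can include sequence outside a deleted part, and which part was deleted is not given in the sources used here. Microglial markers in the unbound RNA summed to 21.7 to 46.7 RPKM in the libraries labelled knockout and 49.4 to 58.4 RPKM in controls, with 14 of 14 tested lower on average and none called.

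No member was called in the libraries labelled Il34 knockout. In the D1 pull-down none of 57 passed (0.00957% of all genes rose and 0% fell), and in the unbound RNA none of 53 passed (0% in either direction); no member had an unadjusted p under 0.05 in either fraction, where 1.53% and 0.883% of all genes did (limma). Kcnj10 came nearest in the pull-down, at 9.61, 6.56 and 6.11 RPKM in the labelled knockout against 5.09, 6.62, 6.15 and 4.98 RPKM in controls. One labelled knockout library stood above the rest and the others overlapped the controls (log2 difference 0.31 ± 0.15, unadjusted p = 0.0637, limma). Kcna5 came nearest in the unbound RNA, at 2.18 ± 0.619 against 2.81 ± 0.473 RPKM (-0.27 ± 0.14, unadjusted p = 0.0702, limma). For Kcnip2 and Kcnd2, among the most abundant members of the D1 pull-down, the log2 differences were 0.03 (95% confidence interval -0.28 to 0.34) and -0.06 (-0.37 to 0.25). Changes within those intervals remain possible, and the intervals are not limits of detection.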

How the data were processed

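Amplified cDNA (NuGEN Ovation V2) was made into TruSeq libraries and sequenced from 1 end for 75 cycles (NextSeq 500), per the labels. The authors deposited RPKM per gene in 2 tables; build mm9 and the tools TopHat2 2.1.0, HTSeq 0.6.0, bcl2fastq and DESeq2 are named, without roles, per the submitters' processing notes. Gene lengths and the reads that count as library size are not given in the sources used here. Lines without values (147 of 22707) and 1 sample of single nuclei were not used. Columns were joined to groups by their headings, which carry no replicate numbers, so library numbers only name a place within a group.

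Values were tested as deposited, on log2(RPKM + 1), by the moderated test of limma 3.58.1 (R 4.3.3; eBayes with a trend), two-sided, for genes with a mean of 1 RPKM or more in the fitted libraries, with Benjamini-Hochberg adjustment over all genes and a threshold of 0.05. The 10 pull-downs and the 10 unbound libraries of the microglia-tagged mice were each fitted together for CNO, all 20 for the microglial fraction (lines weighted 3 to 2), all 15 for the D1 fraction. Whole reads were recovered from the RPKM for 100% of 18090 and 18102 genes within 0.0001 reads and used for depth and for a voom alternative, and they bound counting error only. The fit was tested on simulated data. Alternatives were a pseudocount of 0.1, no filter, quantile normalization, median-ratio scaling, voom, only the groups compared and leaving out each library; scaling to reads in genes was added after seeing the data.

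The members and all gene lists were chosen with earlier results of these data known. Named members are up to 12 with the largest called rise and 12 with the largest called fall at 2 RPKM or more, plus a list of well-known channels; Kcne1l, Kcnt2, Kcnd3, Kcnj5, Kcng3, Kcnv1, Kcnc2, Kcnc4, Kcnj12, Kcna6, Kcnrg, Kcnab3, Kcna5 and Kcnip3 were in places named after their values were seen. Gene positions come from GENCODE vM21 on GRCm38 (93 of 96 identifiers), another build than the authors' own. Values of some genes are not reported here; counts and medians over members and lists include them, and the plots and the comparison of single libraries leave them out.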

Additional observations from a re-analysis of the deposited data

Results flagged for a closer look

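In the D1-tagged mice a single library stood apart from the other 3 in 17 of 154 groups of 4 values (11.04%). Chance gives about 1 in 20 for independent values, but the members share the same libraries and are not independent. The share over all genes was not computed, so no excess is read from this count. Library 1 of the labelled Il34 knockout unbound RNA was the highest for Kcnj3 (8.33 RPKM, others 2.57 to 3.22), Kcnab2 (15.8), Kcnc2 (4.42), Kcnt2 (3.89) and Kcnh7 (9.94), and it also held the highest cortical marker sum of its group, 58.3 RPKM. In library 4 of that group Kcnh4 was highest at 1.91 RPKM.

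In the control pull-down the lowest library stood apart for Kcnip2 (60.2 RPKM, others 85.3 to 89.4), Kcnab2 (26.0), Kcnh1 (8.79) and Kcnn2 (3.30), and the highest for Kcna4 (52.2), Kcnd2 (73.8), Kcnf1 (13.3), Kcnk13 (2.36) and Kcnt2 (3.33). In the control unbound RNA Kcnk2 (26.6) and Kcnj12 (1.93) had a high library.

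In the Chrm4 line, CNO and saline libraries did not overlap and moved in opposite directions in the 2 fractions for 3 members. The log2 differences in pull-down and unbound RNA were 0.62 and -0.12 for Kcnd1, -0.71 and 0.26 for Kcnk13, and -0.66 and 0.21 for Kcnj16. They are 5.66% of the 53 members tested in both fractions, against 6.4% of all genes. The difference between fractions was not tested, and each group holds 2 libraries.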

How the results depend on the processing

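Of 20 counts of members called, 15 were 0 and stayed 0 in 201 of 201 alternatives; the other 5 kept within 1.5 times of the reported count in 60 of 75. The D1 pull-down moved most: 41 members rose as deposited, but 14 under quantile normalization, 17 under median-ratio scaling, 18 under voom and 18 when scaled to reads in genes. The 3 that fell became 6 without the filter, 10 under quantile normalization and 13 each under median-ratio scaling, voom and reads in genes. All genes moved likewise: 84.8% rose as deposited and 29.6% under all 4 rescalings, against 20.7% of members under all 4. The shares of all genes that fell were 6.84% as deposited and 18.3% under all 4. Log2 changes that reversed, in the order quantile, median-ratio, voom and reads in genes, were -0.46, -0.31, -0.31 and -0.29 for Kcna2, -0.41, -0.23, -0.22 and -0.21 for Kcna1, -0.34, -0.30, -0.32 and -0.28 for Kcnc1, -0.38, -0.48, -0.63 and -0.47 for Kcnd3 and -0.51, -0.57, -0.72 and -0.55 for Kcnn2. Less the all-gene median they were -0.30 for Kcna2, -0.21 for Kcna1 and -0.35 for Kcnc1, and Kcnj2 was -0.046 under quantile normalization. The 4 scalings reduced the shift of all genes and did not remove it. Its median log2 change was 0.81 as deposited and 0.10 to 0.15 under them. In the Chrm3 unbound RNA the 1 member that rose became 0 without the filter, where more genes are tested, and ranged from 0 to 2 when each library was left out. Kcnk6, Kcnk13, Kcnd1 and Kcnj2 stayed called in the microglial pull-down under every alternative run, and Kcns1, Kcnb2, Kcng1, Kcnk3 and Kcnip2 lost their call under at least 1. Of results for single members, 1871 kept direction and call, 46 lost the call, 24 gained it and 24 reversed. No paired analysis was possible because the columns carry no replicate numbers to match those of the sample titles. Depth limits members under the filter and groups of 2.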

Other observations

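Some neighbouring channel genes differed between fractions. Kcnj16 and Kcnj2 lie 38.2 kb apart on the same strand of chromosome 11, and in the saline microglial pull-down Kcnj2 was higher than unbound (22.2 ± 3.90 against 12.4 ± 1.64 RPKM) while Kcnj16 was lower (1.20 ± 0.570 against 3.45 ± 1.75 RPKM). Kcnj9, a neuronal G-protein-gated rectifier, and the astrocytic Kcnj10 lie 11.9 kb apart on opposite strands of chromosome 1. In the D1 pull-down Kcnj9 was at 6.56 ± 0.359 against 3.76 ± 0.841 RPKM and Kcnj10 at 5.71 ± 0.806 against 19.8 ± 2.72 RPKM, and under the 4 rescalings their log2 changes were -0.02 to 0.00 and -2.62 to -2.37. Kcna3 and Kcna2, 63.1 kb apart on chromosome 3, both fell in the microglial pull-down (by 1.22 and 1.16 on the log2 scale).

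Members below the filter were 35 in the microglia-tagged mice and 38 in the D1-tagged mice. Of these, 20 and 35 were under 1 RPKM in every library, and 2 in each table were listed at 0 throughout, Kcnk16 and Kcne1 in the first and Kcnk16 and Kcna7 in the second. Within the table of the D1-tagged mice, Kcnk6 was at most 0.607 RPKM in any library.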
